A study of Mus musculus with 6 samples.

Results

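The stem cell transcription factor heptad comprises *Erg*, *Fli1*, *Gata2*, *Lmo2*, *Lyl1*, *Runx1*, and *Tal1*, and *Hlf*, *Mecom*, and *Meis1* were taken with it as partners. These 10 genes were found by symbol among the 26264 genes with normalized read counts, and all 10 reached the count minimum for testing, a mean of 10 over the libraries, as did 17404 genes in all. In blood stem cells, the heptad factors bind many regulatory elements together. LMO2 is an adaptor without DNA binding of its own that joins TAL1 or LYL1 to a GATA factor, whereas ERG and FLI1 read ETS sites and RUNX1 reads sites of its own. HLF, MECOM, and MEIS1 are DNA-binding factors known for roles in the maintenance of hematopoietic stem cells (HSCs).

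Bulk RNA-seq was performed on bone marrow HSCs, gated as Lineage-Sca1+cKit+ (LSK) CD150+ CD48-. They came from untreated 8-week-old female mice, 3 wild-type (WT, C57Bl/6) and 3 with a whole-body loss of *Irf1* (B6.129S2-Irf1 tm1Mak/J, labelled IRF1 KO and written *Irf1-/-* here), with 1 library per mouse. Because the loss was not restricted to HSCs, their surroundings lacked *Irf1* as well. Reads on genes were between 43138521 and 57281017 in the *Irf1-/-* libraries and between 43267486 and 59658080 in the WT libraries.

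The targeted gene was measured first. *Irf1* had 9267, 9524, and 9287 normalized counts in *Irf1-/-* replicates 2, 3, and 4 and 10122, 11120, and 12057 in the WT libraries of the same numbers. All *Irf1-/-* libraries lay below all WT libraries, but the difference was small (log2 fold change −0.24, SE 0.0876) and did not pass the test (adjusted *P* = 0.17, limma). The count pools all exons of the gene, and the part that this allele lacks is not given in the sources used here. It therefore does not check the genotype, and every direction given here rests on the labels. The paper reports suppressed interferon responses in the *Irf1-/-* HSCs sequenced here. In separate mice it reports less MHC class II on the surface of *Irf1-/-* HSCs. Fold changes are *Irf1-/-* over WT throughout. In limma they are on the log2(normalized count + 1) scale, and in edgeR and DESeq2 they come from models of read counts.

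All 10 HSC marker genes examined were measured in every library, with *Kit*, the receptor for stem cell factor, the most abundant (77902 to 88715 normalized counts). *Cd48*, which the gate excludes as a surface protein, was between 257 and 431. The hemoglobin genes *Hba-a1* and *Hbb-bt* were at 0 in all 6 libraries. *Gata1*, from the same erythroid list, was between 3102 and 8221, so these zeros do not show that erythroid transcripts were absent. The levels measured are averages over the sorted cells, in which fewer cells of a type and less RNA per cell cannot be told apart.

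None of the 10 genes was called between genotypes by limma, where a call required that the adjusted *P* be under 0.05 and the log2 fold change exceed 0.58 in either direction. Over all genes tested, 333 were called (1.91%), with 167 higher in *Irf1-/-* and 166 higher in WT HSCs. This even split was not kept by all analyses, since 17.5% of the calls were higher in *Irf1-/-* HSCs in limma without a trend, 58.5% in DESeq2, and 40.7% without *Irf1-/-* replicate 4. With no limit on the fold change the count among the 10 was also 0, beside 561 of all genes (3.22%). *Mecom* and *Hlf* had an unadjusted *P* under 0.05, that is, 2 of 10 beside 16.5% of all genes tested. edgeR on the recovered reads also gave 0 of 10 at an adjusted *P* under 0.05 (3.29% of all genes it tested) and 3 of 10 at an unadjusted *P* under 0.05 (16.7% of all genes it tested). DESeq2 gave 1 of 10, *Mecom* (9.79% of all genes to which it gave an adjusted *P*). The number of genes called by limma over the whole table was 204 without *Irf1-/-* replicate 4, 207 without WT replicate 3, and 569 without WT replicate 4, with 0 of the 10 genes called in each.

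**Figure D1:**
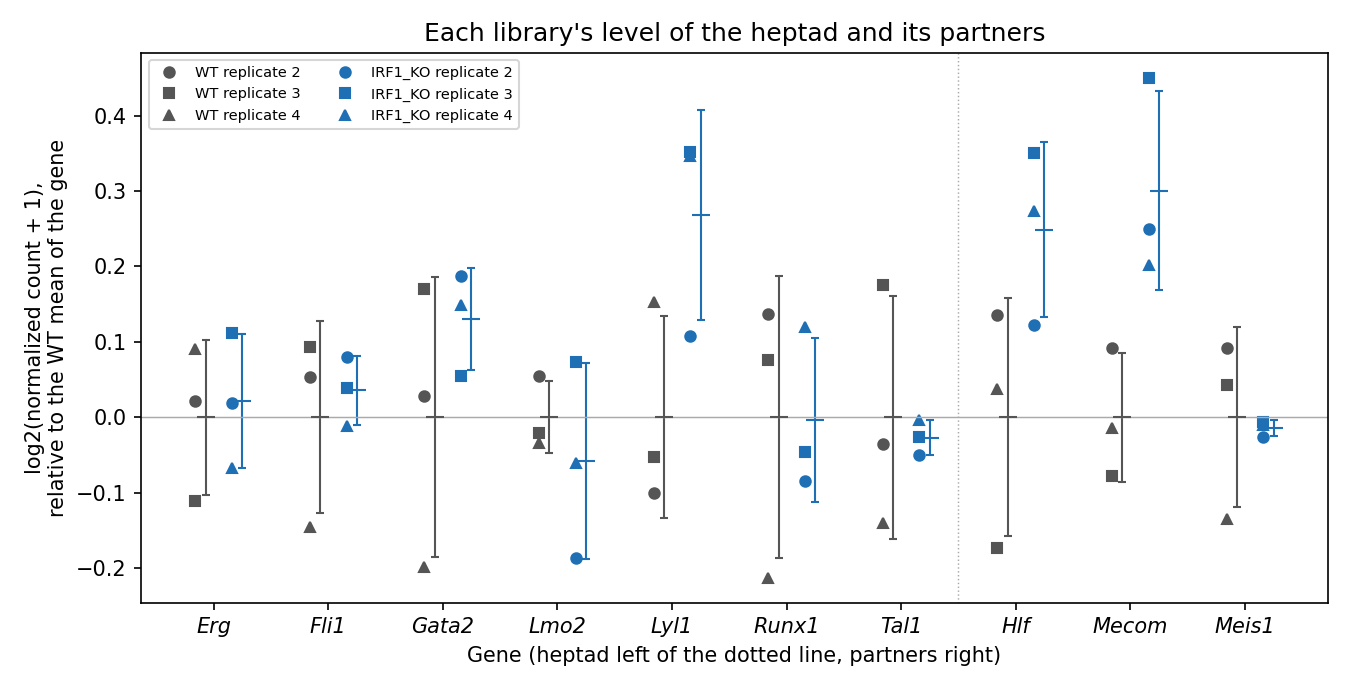
Level of each gene in each library as log2(normalized count + 1) relative to the mean of the 3 WT libraries. Symbols are libraries, and horizontal ticks with bars are the mean ± SD of a genotype (n = 3). The *Irf1-/-* and WT libraries are apart only for *Mecom*, and the points of the other 9 genes overlap between genotypes.

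*Lmo2*, the adaptor, was between 47449 and 56802 normalized counts in *Irf1-/-* HSCs and between 52740 and 56080 in WT HSCs. The lowest and the highest value both came from *Irf1-/-* libraries, replicates 2 and 3, so the WT range lay inside the *Irf1-/-* range. The log2 fold change was −0.058 (SE 0.0958, adjusted *P* = 0.844, limma).

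TAL1 and LYL1 are closely related basic helix-loop-helix factors that bind E-boxes together with E proteins. *Tal1* had 2278, 2316, and 2352 normalized counts in *Irf1-/-* replicates 2, 3, and 4, within the WT values of 2302, 2664, and 2140 (log2 fold change −0.027, SE 0.105). *Lyl1* had 1141, 1352, and 1346 normalized counts in *Irf1-/-* replicates 2, 3, and 4 and 988, 1021, and 1177 in WT replicates 2, 3, and 4. Only *Irf1-/-* replicate 2 and WT replicate 4 exchanged places between the genotypes. The log2 fold change of *Lyl1* was 0.27 (SE 0.126, 95% confidence interval −0.0014 to 0.54), with an unadjusted *P* of 0.051 and an adjusted *P* of 0.306 in limma. *Lyl1* overlaps *Nfix* in the gene table of GRCm38.p6, and without a stated strand setting reads from the overlap cannot be assigned to one of them with certainty. *Nfix* itself had 4371 ± 247 normalized counts in *Irf1-/-* and 4835 ± 124 in WT HSCs (SD, n = 3), which differed by −0.15 on the log2 scale (adjusted *P* = 0.456, limma).

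*Gata2*, a zinc finger factor required for the formation and survival of HSCs, had 38877, 35486, and 37869 normalized counts in *Irf1-/-* replicates 2, 3, and 4. In WT replicates 2, 3, and 4 it had 34842, 38423, and 29761. WT replicate 4 was the lowest library, whereas WT replicate 3 exceeded all *Irf1-/-* libraries but 1. The difference, 0.13 on the log2 scale (SE 0.103, adjusted *P* = 0.611, limma), was smaller than the spread of the WT libraries. Leaving out WT replicate 4 gave 0.031, and leaving out WT replicate 3 gave 0.22.

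The ETS factor genes *Erg* and *Fli1* differed least from their WT level together with *Runx1*, *Tal1*, *Lmo2*, and *Meis1*, all 6 with an absolute log2 fold change under 0.1. *Erg* was between 2442 and 2764 normalized counts in *Irf1-/-* HSCs and between 2367 and 2724 in WT HSCs (log2 fold change 0.022, SE 0.0993). *Fli1* was between 11912 and 12689 and between 10855 and 12804, respectively (log2 fold change 0.036, SE 0.0886). *Runx1*, whose product is a master regulator of the emergence of HSCs, was between 6685 and 7703 and between 6117 and 7796 (log2 fold change −0.0035, SE 0.104). The adjusted *P* values of these 3 genes were 0.954, 0.908, and 0.993 (limma). The sign of such small differences was not stable: that of *Erg* turned with median centring, and those of *Runx1*, *Tal1*, and *Meis1* with quantile normalization, and each of the 6 changed sign in at least 1 fit with a library left out.

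Among the partners, *Mecom* had the smallest *P* of all 10 genes. Its product, a zinc finger factor that includes EVI1, is needed for the self-renewal of HSCs. *Mecom* had 11205, 12875, and 10845 normalized counts in *Irf1-/-* replicates 2, 3, and 4 and 10045, 8933, and 9334 in WT replicates 2, 3, and 4. Each *Irf1-/-* library was above each WT library, with replicate 3 the highest and its WT namesake the lowest. Of the 10 genes *Mecom* alone did not overlap between genotypes, beside 19.9% of all genes tested in either direction and 10.6% with higher *Irf1-/-* values. The log2 fold change was 0.30 (SE 0.092, 95% confidence interval 0.10 to 0.50), a linear increase of 23.2%, with an unadjusted *P* of 0.00571. The adjusted *P* over all genes was 0.101 in limma, 0.0864 in edgeR, 0.0291 in DESeq2, and 0.025 in limma on quantile-normalized values. It was 0.366 in limma without a trend, 0.137 with no filter on low values, and 0.108 with median centring. The difference passed 0.05 only in DESeq2 and with quantile normalization, and stayed below the limit on the fold change in all analyses. With each library left out in turn, the adjusted *P* was between 0.105 and 0.296.

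*Hlf*, which encodes a PAR-type leucine zipper factor typical of HSCs, had 15168, 17762, and 16836 normalized counts in *Irf1-/-* replicates 2, 3, and 4. It had 15310, 12357, and 14294 in WT replicates 2, 3, and 4. The genotypes overlapped only because *Irf1-/-* replicate 2 and WT replicate 2 were nearly equal. The log2 fold change was 0.25 (SE 0.099, 95% confidence interval 0.036 to 0.46), with an unadjusted *P* of 0.0251 and an adjusted *P* of 0.217 in limma. With each library left out in turn, the log2 fold change of *Hlf* was between 0.16 and 0.32. The lowest value was that without WT replicate 3 (adjusted *P* = 0.579, limma). *Meis1*, which encodes a homeodomain factor, was between 28077 and 28483 in *Irf1-/-* HSCs and between 26048 and 30487 in WT HSCs (log2 fold change −0.014, SE 0.0889). The 3 *Irf1-/-* libraries were nearly identical and lay in the middle of the WT range (SD 215 against 2326, a difference in spread that was not tested).

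**Figure D2:**
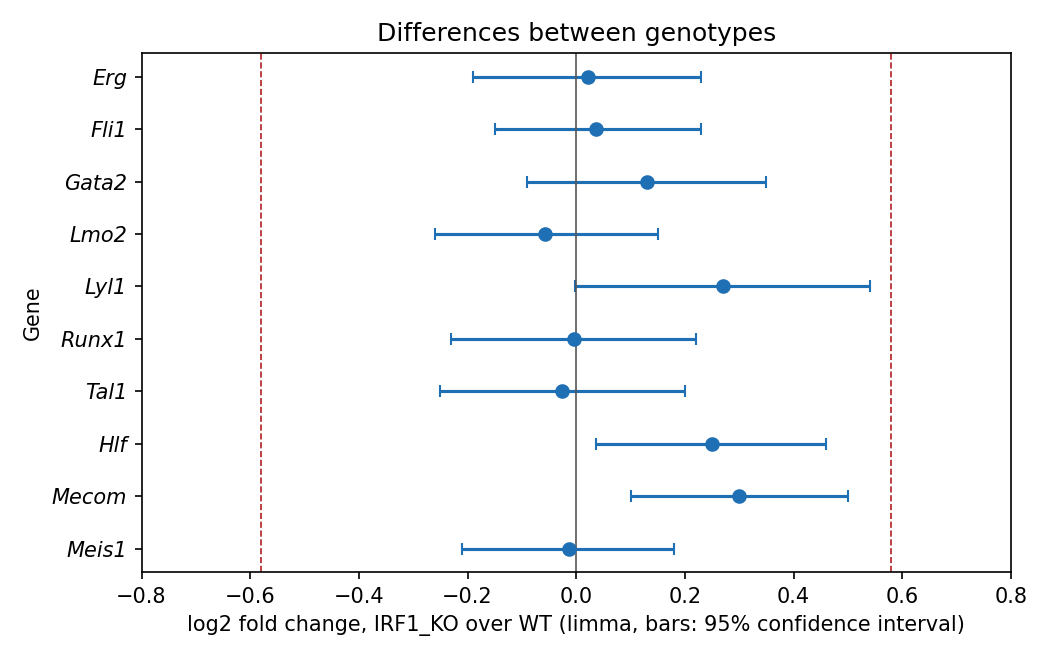
Log2 fold change of each gene, *Irf1-/-* (IRF1_KO) over WT, from limma, with bars for the 95% confidence interval (3 libraries per genotype). The dashed lines are the limit on the fold change, 0.58 in each direction. All 10 intervals lie between these lines, and those of *Hlf* and *Mecom* lie above 0.

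In limma with a trend, all 10 confidence intervals lay within 0.58 in either direction, that is, within 1.49-fold. Intervals of the other fits were not examined. The lowest bound was a change of −16.7% (*Lmo2*) and the highest a change of 45.2% (*Lyl1*), and 8 of 10 intervals included 0. The mean was higher in *Irf1-/-* HSCs for 6 of the 10 genes and lower for 4. The median log2 fold change of the 10 genes was 0.029 (heptad 0.022, partners 0.25), beside −0.0028 over all genes tested. Over genes whose mean normalized count was 1000 or more, a level that all 10 reached, the median was −0.034. With quantile normalization only *Lmo2* was lower and the median of the 10 genes was 0.094. The median was −0.0025 with median centring and −0.0031 without WT replicate 4, where that of the heptad was −0.0096 and −0.037, respectively. Over all genes tested the median was −0.034 with median centring and −0.0019 with quantile normalization. Over genes whose mean normalized count was 1000 or more it was −0.065 and −0.0026, respectively.

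Levels of different genes were compared per kilobase of exon, since longer transcripts yield more reads. In WT HSCs *Lmo2* ranked first with 24936 ± 834 normalized counts per kilobase (SD, n = 3), higher than 99.8% of the tested genes with a known length. *Gata2* followed with 10248 ± 1299, a level 2.43 times lower. *Meis1* (3877 ± 315) and *Fli1* (3873 ± 335) came next and could not be told apart. *Hlf* was at 2154 ± 231, and *Runx1* (914 ± 114) and *Mecom* (892 ± 53.2) overlapped each other. *Erg* was at 736 ± 52, and *Lyl1* (590 ± 56) and *Tal1* (541 ± 61.3) formed the lowest pair, again with overlapping libraries. The least abundant of the 10, *Tal1*, still exceeded 62.3% of the tested genes. In *Irf1-/-* HSCs the order differed only within the pairs whose WT libraries overlapped: *Fli1* (3961 ± 125) stood before *Meis1* (3830 ± 29), and *Mecom* (1100 ± 102) before *Runx1* (909 ± 69.6).

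The 10 genes varied little among mice of a genotype. Their residual SD on the log2 scale had a median of 0.113, and each of the 10 was below the median of all genes tested, 0.192. Abundance goes with this: the median was 0.119 over the 8388 genes whose mean normalized count was 1000 or more. Each library held between 906 and 68148 reads of any of the 10 genes.

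Single libraries nevertheless held the lowest or the highest value of several of the 10 genes at once. WT replicate 4 had the lowest value of all 6 libraries for 5 of 10 genes (*Fli1*, *Gata2*, *Runx1*, *Tal1*, and *Meis1*), and *Irf1-/-* replicate 3 had the highest for 5 of 10 (*Erg*, *Lmo2*, *Lyl1*, *Hlf*, and *Mecom*). Relative to the mean over the 6 libraries, the 10 genes were on average −0.11 on the log2 scale in WT replicate 4 and 0.09 in *Irf1-/-* replicate 3. All genes tested summed to 46517619 normalized counts in WT replicate 4, against 49074348 and 51071339 in WT replicates 2 and 3. They summed to 49484413 in *Irf1-/-* replicate 3, against 45962780 and 46825717 in *Irf1-/-* replicates 2 and 4. Whether the deviations were particular to the 10 genes was not tested. WT replicate 4 also held 1033 normalized counts of *S100a8*, a granulocyte gene that was between 13.5 and 110 in the other libraries, while each of the other 6 genes of the myeloid list was there within the range of the other libraries. The lymphoid genes *Rag1* (148 against 41.5 to 97) and *Dntt* (136 against 14.7 to 48.8) were also highest in WT replicate 4. Each other gene of the lymphoid list was within the range of the other libraries.

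Next, 5 ratios within a library were examined, because a ratio does not depend on how libraries are scaled. The exact two-sided permutation test of 3 against 3 libraries cannot give a *P* below 0.1. The ratio of *Gata2* to *Gata1*, factors that replace one another on DNA during erythroid and megakaryocytic differentiation, was 3.22, 3.52, and 3.24 on the log2 scale in *Irf1-/-* replicates 2, 3, and 4. In WT replicates 2, 3, and 4 it was 2.68, 2.22, and 2.71. All *Irf1-/-* libraries were above all WT libraries, by 0.79 on average or 1.73-fold, with the smallest *P* this test can give (exact permutation *P* = 0.1, 0.333 after adjustment over the 5 ratios).

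The denominator differed more than the numerator. *Gata1*, the gene of the main erythroid and megakaryocytic GATA factor, had 4168, 3102, and 4011 normalized counts in *Irf1-/-* replicates 2, 3, and 4 and 5453, 8221, and 4557 in WT replicates 2, 3, and 4. The groups did not overlap, but the log2 fold change of −0.66 (SE 0.174) did not pass the test (adjusted *P* = 0.0575, limma). The adjusted *P* of *Gata1* passed 0.05 without WT replicate 4 (0.0106) but with no other library left out, and also with median centring (0.0422), a pseudocount of 8 (0.0469), or a count minimum of 50 (0.0491). It was 0.117 in DESeq2, and in limma 0.4 without a trend and 0.0685 with quantile normalization. Without WT replicate 3 the log2 fold change of *Gata1* was −0.42 (adjusted *P* = 0.176, limma).

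The ratios of the other 4 pairs overlapped between genotypes. *Tal1* to *Lyl1* differed by −0.30 on the log2 scale (exact permutation *P* = 0.2), by −0.18 when WT replicate 3 was left out, and by −0.44 (*P* = 0.1) when WT replicate 4 was. *Runx1* to *Cbfb*, which encodes the non-DNA-binding subunit of the RUNX complex, differed by 0.11, and *Erg* to *Fli1* by −0.014, both with an exact permutation *P* of 0.8. The differences for the last pair and for *Runx1* to *Cbfb* changed sign when single libraries were left out.

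A further 5 lists placed the 10 genes in their network, with 61 genes beside the 10 themselves, of which 59 were tested. Of these, 8 passed an adjusted *P* of 0.05 in limma, all of them higher in *Irf1-/-* HSCs, beside 1.73% of all genes tested that were higher at this threshold and 1.49% that were lower. The median log2 fold change of the 59 genes was 0.13. Because the lists were chosen with earlier results of these data known, these counts do not test whether the network changed. The number that passed depended on single libraries and on the model. It was 2 without *Irf1-/-* replicate 2, 3 without WT replicate 2, 5 without *Irf1-/-* replicate 4 or WT replicate 3, and 11 without WT replicate 4. DESeq2 gave 13. In limma without a trend, *Nfil3* alone of these genes passed 0.05, and none of the marker genes that passed in limma with a trend did (*Egr1* and *Fgd5* each had 0.0511).

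**Figure D3:**
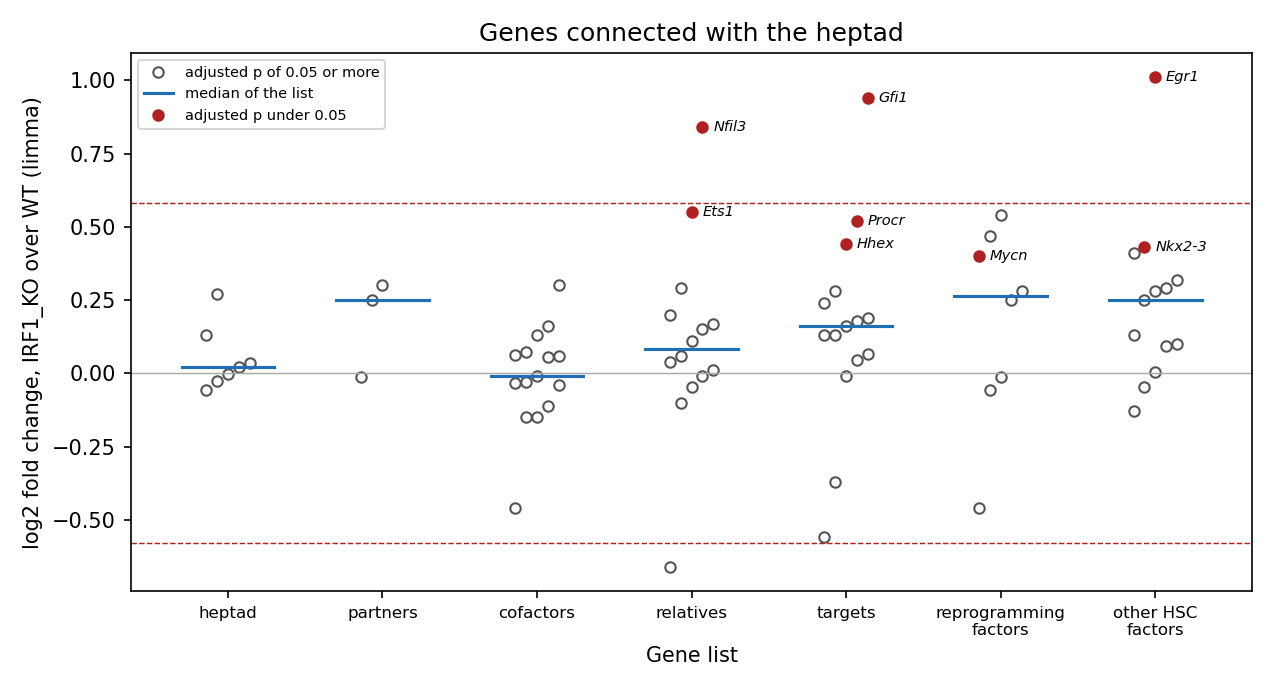
Log2 fold change of each tested gene of 7 lists, *Irf1-/-* (IRF1_KO) over WT, from limma. Filled points have an adjusted *P* under 0.05 and carry the gene's name, blue lines are list medians, and dashed lines are the limit on the fold change, 0.58. The filled points all lie above 0 and none belongs to the heptad, its partners, or its cofactors.

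The cofactors, which hold these complexes together or bind DNA with them, showed no change that passed the limma test. Of 15 tested genes, 7 had a positive and 8 a negative fold change, and the median was −0.0088. In limma 0 of 15 passed an adjusted *P* of 0.05 and 2 had an unadjusted *P* under it, and 1 of 15 passed in DESeq2. *Cbfa2t3*, a corepressor of the TAL1 complex, had the highest log2 fold change (0.30, SE 0.108, adjusted *P* = 0.166, limma).

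Among 16 relatives of the 10 genes, 14 were tested, with a median log2 fold change of 0.085, and 2 passed an adjusted *P* of 0.05 in limma. *Fev* and *Tal2* were below the count minimum. *Nfil3*, which encodes a repressor that shares binding sites with HLF-type factors, rose from 240 ± 7.54 to 429 ± 19.4 normalized counts (SD, n = 3). Like *Gfi1* and *Egr1* below, it was named because it was called, so its naming also followed from its values. Its log2 fold change was 0.84 (SE 0.179, adjusted *P* = 0.0217, limma). It was past 0.05 without WT replicate 4 (0.028) but not with any other library left out (0.0531 to 0.0888). *Ets1*, an ETS factor named after its values were seen, rose from 1677 ± 75.8 to 2469 ± 283, by 0.55 on the log2 scale (SE 0.11, adjusted *P* = 0.0141, limma). It missed the threshold without *Irf1-/-* replicate 2 (0.0765) or WT replicate 2 (0.061). *Prdm16*, the closest relative of *Mecom* and likewise named after its values were seen, was higher by 0.29 on the log2 scale (SE 0.0902, adjusted *P* = 0.106 in limma and 0.0318 in DESeq2), with groups that did not overlap.

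Among genes known to be bound or regulated by heptad factors the median log2 fold change was 0.16, and 3 of 15 passed an adjusted *P* of 0.05. *Gfi1*, a zinc finger repressor that restrains HSC proliferation, had 1630, 1383, and 1058 normalized counts in *Irf1-/-* replicates 2, 3, and 4 and 847, 736, and 547 in WT replicates 2, 3, and 4. It rose by 0.94 on the log2 scale (SE 0.182, adjusted *P* = 0.0126, limma), but missed the threshold without *Irf1-/-* replicate 2 (0.0779). *Hhex* and *Procr* were named after their values were seen. *Hhex*, a homeobox gene, rose from 6892 ± 545 to 9352 ± 410 normalized counts (log2 fold change 0.44, adjusted *P* = 0.0147, limma), but missed 0.05 when *Irf1-/-* replicate 2 (0.0743), *Irf1-/-* replicate 4 (0.0632), WT replicate 2 (0.0583), or WT replicate 3 (0.0641) was left out. *Procr*, which encodes the HSC surface protein EPCR, rose from 4129 ± 367 to 5915 ± 518 (log2 fold change 0.52, adjusted *P* = 0.0112, limma), and passed in all 6 fits with 1 library left out. *Kit* differed by −0.0092 on the log2 scale (adjusted *P* = 0.981, limma).

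The list of genes used together to convert blood cells into HSC-like cells contains *Hlf*, *Lmo2*, and *Meis1*. The median log2 fold change of its 8 genes was 0.26, and the highest value was 0.54 (*Zfp37*, adjusted *P* = 0.268, limma). Only *Mycn* passed an adjusted *P* of 0.05, and it was named for that after its values were seen. It rose from 22902 ± 1054 to 30242 ± 350 normalized counts (log2 fold change 0.40, SE 0.083, adjusted *P* = 0.0177, limma). It missed the threshold without *Irf1-/-* replicate 2 (0.0682) or 4 (0.105) or WT replicate 2 (0.0913).

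Of 13 other transcription and chromatin factors of HSCs, 11 had a positive and 2 a negative fold change, and the median was 0.25. In limma 2 of 13 passed an adjusted *P* of 0.05. *Egr1*, an immediate-early gene whose product favours HSC quiescence, had 6247, 5935, and 5471 normalized counts in *Irf1-/-* replicates 2, 3, and 4 and 2744, 3234, and 2778 in WT replicates 2, 3, and 4. It rose by 1.01 on the log2 scale (SE 0.0975, adjusted *P* = 3.89e-05, limma), and passed in all 6 fits with 1 library left out. *Nkx2-3*, named after its values were seen, rose by 0.43 on the log2 scale (SE 0.0976, adjusted *P* = 0.0272, limma). With 1 library left out it passed only without WT replicate 4 (0.0391).

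Some markers of differentiating cells, from the megakaryocyte and erythroid lists, also differed between genotypes in limma. Of 7 megakaryocyte genes all had a negative fold change (median −0.56), and *Pf4*, *Gp1ba*, and *Gp1bb* fell (log2 fold changes −1.11, −0.69, and −0.90, with adjusted *P* values of 0.00334, 0.0183, and 0.0032 in limma). *Gp1ba* missed 0.05 without *Irf1-/-* replicate 2 (0.0643) or 3 (0.0585) or WT replicate 3 (0.077). The list summed to 52625, 34806, and 47425 normalized counts in *Irf1-/-* replicates 2, 3, and 4 and to 60369, 73757, and 58411 in WT replicates 2, 3, and 4. Its most abundant gene, *Itga2b*, is also a heptad target and differed by −0.56 on the log2 scale (adjusted *P* = 0.0922, limma). Of 7 erythroid genes 5 were tested, and *Klf1* and *Car1* fell (log2 fold changes −0.72 and −3.51, with adjusted *P* values of 0.0361 and 0.02 in limma). *Klf1* missed 0.05 when *Irf1-/-* replicate 2 (0.0583), *Irf1-/-* replicate 3 (0.07), WT replicate 2 (0.117), or WT replicate 3 (0.109) was left out. *Car1* missed it without *Irf1-/-* replicate 3 (0.0603) or 4 (0.0681), in edgeR (0.0875), and in DESeq2 (0.198). Its log2 fold change was −2.48 in edgeR, −2.47 in DESeq2, and between −4.77 and −2.60 with 1 library left out. This list, led by *Gata1*, summed to 7928, 5359, and 6832 in *Irf1-/-* and to 10823, 13111, and 10190 in WT libraries. *Irf1-/-* replicate 3 was the lowest and WT replicate 3 the highest for both sums, and both also bounded the ratio of *Gata2* to *Gata1*. The part of such cells, or of such genes within HSCs, in the results was not tested.

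All 7 proliferation genes had a negative fold change (median −0.52), and *Mki67*, *Top2a*, and *Cdk1* fell (log2 fold changes −0.67, −0.77, and −0.50, with adjusted *P* values of 0.0427, 0.0177, and 0.0392 in limma). All of these missed 0.05 without *Irf1-/-* replicate 4 (0.168, 0.0532, and 0.197), WT replicate 2 (0.143, 0.0548, and 0.133), or WT replicate 3 (0.13, 0.0674, and 0.156), and *Mki67* and *Cdk1* also without *Irf1-/-* replicate 2 (0.125 and 0.0857). Their sums were 49346, 51722, and 37418 in *Irf1-/-* replicates 2, 3, and 4 and 69945, 76567, and 54753 in WT replicates 2, 3, and 4, with *Mcm5* the most abundant. Among the 10 HSC markers *Fgd5* rose (log2 fold change 0.83, adjusted *P* = 9.13e-05, limma), as did *Procr*, and *Ly6a*, which encodes Sca1, fell (−0.43, adjusted *P* = 0.0245, limma), and missed 0.05 without *Irf1-/-* replicate 2 (0.115) or 4 (0.112) or WT replicate 3 (0.0786). The HSC marker sums overlapped, with 191494, 214017, and 196000 in *Irf1-/-* and 193677, 201705, and 180418 in WT libraries. Of the progenitor genes *Cd48* and *Flt3*, *Flt3* rose (log2 fold change 0.67, adjusted *P* = 0.0407, limma), and missed 0.05 without any 1 of the *Irf1-/-* libraries (0.0922, 0.127, and 0.0747) or WT replicate 3 (0.117). The sums of this pair were 3873, 4755, and 3773 in *Irf1-/-* against 2913, 2056, and 3224 in WT libraries. The part of these differences in the values of the heptad and its partners was not tested.

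All marker genes that passed, other than *Flt3*, were named after their values were seen. Of 7 myeloid genes only *Prtn3* passed (log2 fold change 0.53, adjusted *P* = 0.0334, limma), and it missed 0.05 without *Irf1-/-* replicate 2 (0.0619) or 4 (0.17) or WT replicate 3 (0.13). The list, dominated by *Lyz2*, summed to 33860, 39827, and 37174 in *Irf1-/-* and 29943, 34651, and 34064 in WT libraries. Of 7 endothelial genes 6 were tested, and only *Emcn*, which HSCs also express, passed (log2 fold change 0.58, adjusted *P* = 0.0101, limma), with sums of 18609, 16157, and 18826 against 17025, 16642, and 17956 and *Vwf* the most abundant. *Kdr* (log2 fold change 0.59, adjusted *P* = 0.132, limma) passed 0.05 in DESeq2 (0.0482) and in limma without WT replicate 4 (0.0155). None of the 6 tested lymphoid genes passed in limma or edgeR, 0 had an unadjusted *P* under 0.05 in limma, and DESeq2 gave an adjusted *P* for *Rag1* only (0.70). Their list, led by *Rag1*, summed to 396 normalized counts in WT replicate 4 and to between 135 and 264 in the other libraries.

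The 5 genes whose profiles over the 6 libraries were nearest to that of *Mecom*, by root mean square difference of centred log2 values among 12068 genes, were *Prdm9* (0.0383), *Abr* (0.0417), *Il2rg* (0.0423), *Kcnk5* (0.0443), and *Ptger4* (0.0454). Each of them did not overlap between genotypes, as is built into a likeness to *Mecom*, and their log2 fold changes were between 0.23 and 0.35. None passed an adjusted *P* of 0.05 in limma or edgeR, although all but *Prdm9* had an unadjusted *P* under 0.05 in limma, and DESeq2 gave *Kcnk5* 0.0351 and *Ptger4* 0.03.

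Promoter windows of RefSeq (GRCm38.p6), reaching from 250 bases before to 50 after a gene's start, were matched by symbol for 8 of the 10 genes (all but *Fli1* and *Lmo2*), 14 windows in all. The windows were searched on both strands for letters that resemble sites of the factors involved. GAAANNGAA, the IRF-type letters, was in 2 of 14 windows (*Mecom* and *Erg*) and in 8.56% of all 32851 windows. GGAA, the ETS core, was in all 14 and in 96% of all windows. GATA was in 7 of 14 (57.9% of all), the E-box CANNTG in 8 of 14 (72.3%), the RUNX-type TGTGGT in 2 of 14 (16.8%, *Meis1* and *Runx1*), and the MEIS-type TGACAG in 2 of 14 (19.2%, *Mecom* and *Erg*).

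The matches to the IRF-type letters are shown because they are those of the factor that the *Irf1-/-* mice lack. Capitals mark the match, and the strand is that of the gene (minus for both). The match in the *Mecom* window (chr3:30509927-30509965) reads in the opposite direction to the gene and begins 191 bases before its start, and that in the *Erg* window (chr16:95530420-95530458) begins 78 bases before the start. Neither overlaps another of the motifs searched.
*Mecom*: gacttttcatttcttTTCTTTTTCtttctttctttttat
*Erg*: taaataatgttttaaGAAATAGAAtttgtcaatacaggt

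Letters of one of the 10 factors in the window of another gene of the 10 are shown for *Mecom* and *Meis1*, with the match in capitals. The second *Mecom* window holds the MEIS-type letters in reverse (chr3:30013270-30013305, minus strand), 86 bases before that start. The *Meis1* window holds the RUNX-type letters (chr11:19019115-19019150, minus strand), 166 bases before the start. A match describes the letters only, and binding was not measured in these libraries.
*Mecom*: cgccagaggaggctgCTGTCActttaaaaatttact
*Meis1*: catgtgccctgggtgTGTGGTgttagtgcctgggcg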

How the data were processed

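The RNA of HSCs was sequenced for 3 WT and 3 *Irf1-/-* mice, and samples were grouped and numbered by their labels. The authors used Trim Galore! for trimming, HISAT2 for alignment (build mm39 in the submitters' processing notes), and Htseq-count for counting. The deposited values are a signal, namely gene counts after division by the DESeq2 size factor of the library. Annotation, program versions, and strand setting are not given in the sources used here. All values (100%) were whole multiples of their library's smallest step within a tolerance of 0.02 reads, so whole reads were recovered. The reads carry no molecular identifiers.

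The 10 genes and all lists were chosen with earlier results of these data known. The test between genotypes was limma 3.58.1 (R 4.3.3, eBayes with trend). It used log2(normalized count + 1) of the genes whose mean was 10 or more, with Benjamini-Hochberg adjustment over all 17404. edgeR 4.0.16 (quasi-likelihood test, 572 genes with an adjusted *P* under 0.05) and DESeq2 1.42.0 (1282 genes) were run on the recovered reads as alternatives. Other alternatives were the pseudocount, the filter, the trend, quantile normalization, median centring, a replicate block, and leaving out each library. Named genes were *Irf1*, the 10 genes, the called or otherwise the extreme genes of each list, the most abundant marker and markers at 0, cofactors used in ratios, overlapping genes, and the 5 nearest profiles to the gene with the smallest *P*. From these, 1 gene and its ratio are not reported here. Exon lengths came from GENCODE vM1 by symbol (84.2% of tested genes, all 10 genes). Tests were tried on simulated data, and figures were drawn with matplotlib 3.10.9.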

Additional observations from a re-analysis of the deposited data

How the results depend on the processing

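None of the 10 genes was called under any alternative, and 0 passed an adjusted *P* of 0.05 except *Mecom*, which made 1 of 10 with quantile normalization and 1 of 10 in DESeq2. Of 160 alternative values of the 10 fold changes, 143 kept their sign and their side of the threshold, as did 353 of 432 values of 27 other genes, none of which changed sign. With quantile normalization *Runx1* was 0.038, *Tal1* 0.0005, and *Meis1* 0.092, and with median centring *Erg* was −0.0096. With single libraries left out, *Erg* was between −0.034 and 0.067, *Fli1* between −0.037 and 0.082, *Lmo2* between −0.12 and 0.0061, *Runx1* between −0.11 and 0.065, *Tal1* between −0.10 and 0.061, and *Meis1* between −0.082 and 0.031. The log2 ratio difference of *Erg* to *Fli1* was then between −0.12 and 0.10 and that of *Runx1* to *Cbfb* between −0.022 and 0.19. The number of genes called was 333, against 40 without a trend in limma, 504 in DESeq2, 561 without the limit on the fold change, and 204 to 569 with 1 library left out (569 without WT replicate 4). The 8 genes of the further lists became 1 without a trend, 13 in DESeq2, and 2 to 11 with 1 library left out. The causes were not tested.

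The replicate numbers were tried as a block. Libraries of the same number did not deviate together throughout (correlations of deviations −0.094, 0.246, and 0.147), so the block result is given here only: 415 genes called, 0 of the 10 genes at an adjusted *P* under 0.05 (*Mecom* 0.0548), and 8 list genes.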
